A study of Daucus carota with 10 samples.

Results

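A set of 819 transcribed loci outside the gene annotation was examined in carrot (Daucus carota) taproots. These were all the loci with an identifier of the form Novel00625, of 36908 loci listed for every library, and the other 36089 were annotated genes, written here with the prefix LOC. The choice used the identifier alone and no expression value. RNA was sequenced in 10 libraries, 2 biological replicates in each of 5 groups, from plants 120 days old kept in a greenhouse. The CT libraries were made from undissected taproot slices of 'H13.360IND', an orange cultivar. Groups E and G were dissected xylem, and groups F and H dissected phloem. The pair E and F came from one purple cultivar and the pair G and H from the other. The labels name no treatment. By the deposited titles the first pair is 'Purple Haze' and the second 'Purple 68', by the series design text and the paper's letters the reverse, and the groups therefore keep their letters.

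The pigment genes bear on the labels and were checked first. CHS1 (LOC108200622), the chalcone synthase gene that opens the flavonoid pathway, had 4958 and 7154 FPKM in E, 7591 and 8899 FPKM in F and 6252 and 8503 FPKM in H. It had 78.9 and 74.8 FPKM in G and 8.40 and 8.72 FPKM in CT. FPKM is the number of sequenced fragments relative to the length of a locus and to the depth of its library. The pathway gene F3H1 had 2057 and 2573 FPKM in E and 30.3 and 21.5 FPKM in G, and DFR1 and LDOX1 were also lower in both G libraries. The deposited colour of E is orange and that of G is purple, and these values go against both. In the paper 'Purple 68' has purple and 'Purple Haze' orange xylem, so the values go with the paper's letters. On these values E and G differ in xylem pigment genes as well as in cultivar, which cannot be told apart. The xylem and phloem labels could not be checked against tissue markers, since the table of gene names used here gives no products.

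A genome annotation lists the genes that were known when it was made, and transcripts found later outside it appear as additional loci. Such loci can be genes that code for proteins and were missed, long non-coding RNAs (lncRNAs, transcripts that are not translated), transcribed repeats, or pieces of a neighbouring gene that were not joined to it. In plants lncRNAs are in general shorter, less abundant and more restricted in where they are transcribed than genes that code for proteins. Xylem is the water-conducting core of the taproot and phloem the sugar-conducting and storage tissue around it. How these 819 loci were found is not given in the sources used here, so it is not known which libraries they were assembled from. No genome of the build was used here, and the loci are therefore described by position, length and abundance.

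The totals by which the libraries had been scaled lay between 13909841 and 17118787 fragments. Between 412 and 471 of the 819 loci had a fragment in a given library, and between 213 and 301 reached 1 FPKM. The second libraries of E and H stood apart, with 15006 and 15177 annotated genes at 1 FPKM or more against 16641 to 18206 in the other 8 libraries, and the counts by cultivar, by tissue and for CT are also given without them. Fewer cells of a type and less RNA per cell cannot be told apart in such bulk tissue. Groups had 2 libraries each, taproots of several plants were mixed per cultivar, and nothing in the labels says which libraries share a root. The paper dissected discs of each purple cultivar into xylem and phloem, so xylem and phloem libraries of a cultivar may share roots. The reported fits treat all libraries as independent.

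The unannotated loci were short. Their median listed length was 814 bases (162 to 6084 bases), against 1515 bases for the annotated genes, 910 bases for the 1412 annotated lncRNA genes and 1623 bases for the 29979 annotated protein-coding genes. The span on the genome had a median of 1794 bases (197 to 69392 bases) against 2937 bases for annotated genes, and in 762 loci it was longer than the listed length, as it is where exons are separated by introns. In 57 loci span and length were equal. Only 5 loci were under 200 bases and 26 were over 3000 bases.

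**Figure D1:**
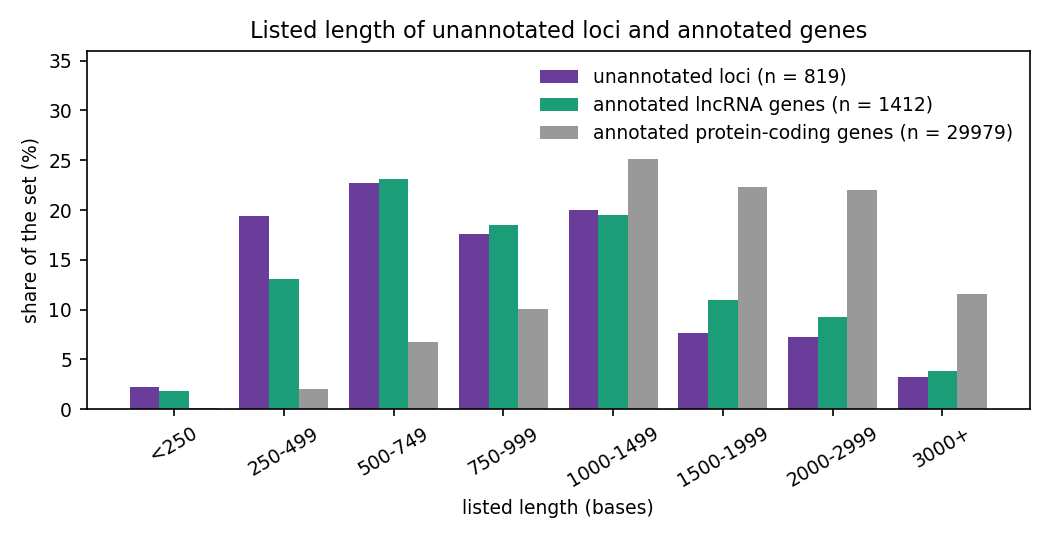
Share of each set (y axis, %) in bins of listed length in bases (x axis), for the 819 unannotated loci, 1412 annotated lncRNA genes and 29979 annotated protein-coding genes. The unannotated loci and the lncRNA genes both have their largest share from 500 to under 750 bases (22.7% and 23.2%), and the protein-coding genes from 1000 to under 1500 bases (25.2%).

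The longest listed lengths belonged to Novel00575 on chromosome 7 (6084 bases), Novel00093 on chromosome 2 (5960 bases) and Novel00655 on chromosome 9 (5861 bases). All 3 were scarcely transcribed, with at most 0.416, 0.757 and 0.0299 FPKM in any library. The longest span was that of Novel00727, with 69392 bases on the minus strand of a scaffold, from 182579 to 251970, for a listed length of 1011 bases. It was also the only locus that overlapped an annotated gene, LOC108203488 on the opposite strand. Novel00016 spanned 59997 bases for 1090 listed bases, and Novel00044 spanned 36267 bases for 526. Novel00044 was listed at 0 in all 10 libraries.

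The loci lay on both strands alike, 424 on the plus and 395 on the minus strand. The 9 chromosomes held 700 of them, 118 were on 79 unplaced scaffolds and 1 was on the plastid sequence. Chromosome names were taken from a newer assembly through the genes shared with it, and starts and ends are those of the deposited files, whose build is not given in the sources used here. Chromosome 7 carried the most loci, 102, or 2.96 per 100 annotated genes, and chromosome 1 the fewest for its genes, with 73 loci or 1.47 per 100. For 37 loci no distance could be given because their scaffold held no annotated gene. For the other 782 the nearest annotated gene was a median of 2479 bases away, against 1203 bases between an annotated gene and its own nearest neighbour. It was within 500 bases for 103 loci, within 2000 bases for 349 and within 10000 bases for 652. The nearest gene lay on the same strand for 387 loci and on the opposite strand for 395. Among themselves 49 loci overlapped, 43 of them with a partner on the opposite strand. The library kit named in the labels does not state that it keeps the strand, so the reads of such partners cannot be told apart.

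A newer annotation gave a look at the same intervals. RefSeq's annotation of the assembly DH1 v3.0 holds 32534 of the 36089 annotated genes and 6552 genes that the files do not list. For 512 loci the same 2 annotated neighbours flanked the interval in both, and for 285 of these loci (55.7%) DH1 v3.0 has a gene in the interval that the files do not have. The newer gene was an lncRNA for 198 loci and a protein-coding gene for 118, some intervals having both. Counted by interval, 255 of 471 that held an unannotated locus had a newer gene (54.1%), against 1652 of 27154 that held none (6.08%). Intervals with loci were also longer, with a median of 12446 bases against 2448. Within intervals of 5000 to 10000 bases the shares were 46.0% and 7.15%, and in the longest class, with medians of 71548 and 70926 bases, they were 82.8% and 64.6%. Coordinates were not carried between assemblies, so whether a newer gene is the same transcript as the locus was not tested.

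**Figure D2:**
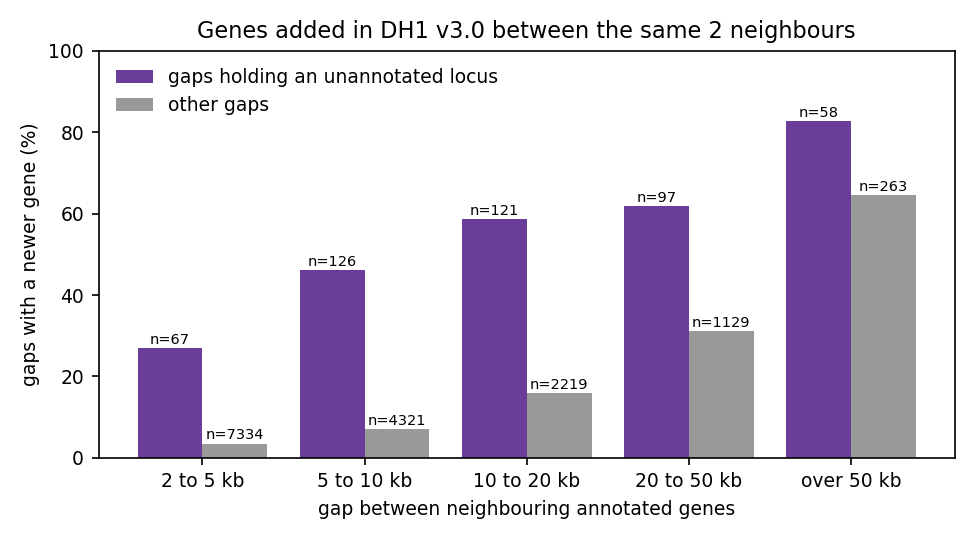
Share of intervals between neighbouring annotated genes in which DH1 v3.0 lists a further gene (y axis, %), by interval length (x axis), for intervals that hold an unannotated locus and for other intervals, with the number of intervals above each bar. Intervals under 2000 bases, of which only 2 hold a locus, are left out. The share is higher in intervals with a locus at every length shown, 26.9% against 3.504% at 2000 to 5000 bases.

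The share of loci with a newer gene rose with abundance up to 10 FPKM and was lower above it. A newer gene was found for 43.5% of 62 loci listed at 0 in all libraries and 56.9% of 130 whose highest group mean was under 1 FPKM. It was found for 58.9% of 180 at 1 to 5 FPKM, 61.9% of 63 at 5 to 10 FPKM and 50.6% of 77 at 10 FPKM or more. These differences were not tested.

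Most of the loci were transcribed in at least 1 library, at low levels. Of the 819, 724 (88.4%) had a fragment in at least 1 library and 569 (69.5%) reached 1 FPKM in at least 1, against 81.6% and 58.8% of annotated genes. The other 95 loci were listed at 0 throughout. Only 180 loci (21.98%) were detected in all 10 libraries, against 52.4% of annotated genes, and 91 (11.1%) had at least 1 FPKM in all 10, against 34.7%. At the upper end 147 loci reached 10 FPKM and 17 reached 100 FPKM in a library. Among detected loci the median lay between 0.927 and 1.87 FPKM per library, and among detected annotated genes between 3.03 and 5.76 FPKM. By group, both libraries reached 1 FPKM for 182 loci in E and 224 in G among the xylems, 195 in F and 215 in H among the phloems, and 209 in CT.

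The most abundant locus was Novel00625, on the minus strand of chromosome 8 from 5779275 to 5780470, with a listed length of 652 bases. It had 396 and 582 FPKM in E, 1662 and 1053 FPKM in F, 695 and 422 FPKM in G, 503 and 525 FPKM in H and 117 and 263 FPKM in CT. Every library of the purple cultivars was above both CT libraries, and the libraries of E, G and H overlapped. The second, Novel00428 on the plus strand of chromosome 6 from 11658428 to 11662451, had 334 and 808 FPKM in E and 473 and 433 FPKM in F, and between 125 and 213 FPKM in the 6 other libraries. It was higher in the pair E and F by 1.53 on the log2 scale than in the pair G and H (SE 0.30, adjusted p = 0.014), and these sides did not overlap.

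The other 8 loci among the 10 with the highest mean all had fragments in every library. Novel00322 on chromosome 4 ranged from 70.6 FPKM in CT to 567 FPKM in E, Novel00286 on the same chromosome from 110.3 FPKM in CT to 326 FPKM in H, and Novel00351 on chromosome 5 from 95.0 FPKM in F to 249 FPKM in H. Novel00620 on chromosome 8 was the reverse of Novel00428, with 240 and 216 FPKM in G and 189 and 147 FPKM in H against 70.1 to 97.7 FPKM in E and F. Its difference between E and F and G and H was -1.19 on the log2 scale (SE 0.20, adjusted p = 0.0071), and no library of one side reached the other. Novel00437 on chromosome 6 had 16.96 and 57.3 FPKM in CT and between 124 and 402 FPKM in all other libraries. Novel00482 and Novel00199 are described with the comparisons below.

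Novel00242 split the replicates of both E and F. It lies on the minus strand of chromosome 3 from 30576076 to 30576874, 103 bases from LOC108212542 on the same strand. It had 165 and 1.16 FPKM in the E replicates and 0.851 and 152 FPKM in the F replicates, whereas the libraries of CT, G and H held between 217 and 356 FPKM. The first E library and the second F library were thus high and the others of these groups near 0. A difference between the replicates of a group of at least 3 on the log2(FPKM + 1) scale was found for 35 of 506 loci with a group mean of 1 FPKM (6.92%) and for 230 of 20318 annotated genes (1.13%). It occurred in 20 loci in F, 10 in E, 7 in H, 6 in G and 0 in CT, where 13 annotated genes showed it.

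In 5 loci both E and F were split in this way, and in all 5 the first E library went with the second F library. Besides Novel00242 these were Novel00341, Novel00391, Novel00520 and Novel00723, named after their values were seen. Novel00341 had 0 and 51.5 FPKM in E and 33.9 and 0.287 FPKM in F. Novel00520 had 20.6 and 0.862 FPKM in E and 1.61 and 25.7 FPKM in F, and at least 45.7 FPKM in every library of the other groups. Among annotated genes 13 were split in both E and F, and in 13 of them the first E library again went with the second F library. What the libraries that went together share was not tested.

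The most even loci stood at the other end. Among 68 loci with a mean of 10 FPKM or more, Novel00385 on chromosome 5 had the lowest coefficient of variation over the 10 libraries, 0.196, with values from 49.7 to 99.5 FPKM. Novel00554 on chromosome 7 ranged from 7.16 to 16.9 FPKM and Novel00745 on a scaffold from 13.7 to 26.3 FPKM. None of the 3 was called in any comparison.

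From 2 FPKM upwards the unannotated loci were present in fewer groups than annotated genes of like abundance. A group was counted where both its libraries had at least 1 FPKM. Where the highest group mean was 1 to 2 FPKM, fewer loci than genes were in exactly 1 group, 31.8% of 132 loci against 44.8% of annotated genes. The shares in every group were 0% and 0.138%. This range lies just above the 1 FPKM at which a group was counted. At 2 to 5 FPKM the shares in every group were 4.82% of 166 loci and 12.7% of annotated genes. Among loci whose highest group mean was 5 to 10 FPKM, 21.8% (22 of 101) were counted in every group, against 52.2% of annotated genes in that range, and 20.8% in exactly 1 group against 4.76%. From 10 to 50 FPKM the shares in every group were 51.3% of 78 loci and 87.0% of annotated genes, and at 50 FPKM or more they were 72.4% of 29 loci and 96.5%. These are descriptions over loci, which are not replicates.

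Some loci were either on or off in whole groups. Fragments were recovered from FPKM and length, and a pattern was counted where each group had at least 3 fragments in both libraries or 0 in both, with at least 1 group of each kind. There were 70 such loci among the 724 detected (9.67%) and 372 among 29456 detected annotated genes (1.26%). Among loci whose highest library had 31 to 300 fragments the shares were 14.4% and 2.23%. They were 7.39% and 2.78% at 3 to 30 fragments, and 3.08% (2 of 65 loci) and 0.1% over 300 fragments. A count of 0 fragments allows a level of up to 3 fragments in that library, which covers counting error only.

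Most on-or-off loci were alike in both tissues of each purple cultivar. Of the 70, 25 were present in E and F alone, 17 in G and H alone, 8 in CT, G and H, 7 in CT alone, 6 in E, F, G and H, and 4 in CT, E and F. These 67 (95.7%) treated both tissues of a cultivar alike, as did 210 of the 372 annotated genes (56.5%). The 7 in CT alone and the 6 in E, F, G and H do not separate the purple cultivars. They set CT apart, where cultivar and lack of dissection cannot be told apart. No locus was present in both xylems and absent from both phloems or the reverse, whatever CT held, whereas 28 annotated genes (7.53%) were. The remaining 3 loci were Novel00048, absent from H alone, Novel00032, absent from E alone, and Novel00161, present in CT and G alone. The last 2 were named after their values were seen.

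**Figure D3:**
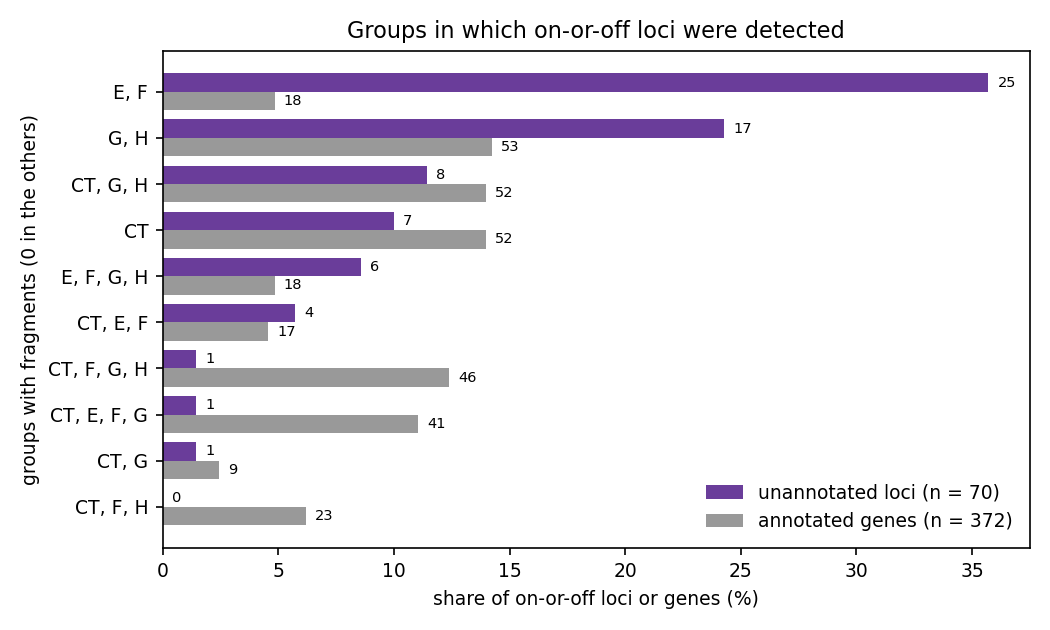
Share of the on-or-off set (x axis, %) by the groups in which fragments were present (y axis), for 70 unannotated loci and 372 annotated genes, with counts beside the bars; patterns with no locus and under 20 genes are left out. Presence in E and F alone holds 25 loci and 18 genes.

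There were 27 loci listed at 0 in both libraries of a group and at 5 FPKM or more in both libraries of another. This rule itself picks loci that differ between groups, and the annotated genes that meet it were not counted. Several of the most abundant of the 27 had fragments in only 1 of the purple cultivars. Novel00016 had 20.3 and 10.8 FPKM in E and 6.90 and 21.1 FPKM in F and was listed at 0 in the 6 other libraries. Its mean in E was at least 57.1-fold the level of 3 fragments per library. It lies on the plus strand of chromosome 1 from 14275790 to 14335786. Novel00017, 130127 bases further on the same strand (14465913 to 14470031), was also absent from G and H and had 17.03 and 6.88 FPKM in E and 11.96 and 18.97 FPKM in F, with 0.562 and 1.01 FPKM in CT. Novel00726, on the minus strand of a scaffold from 1434487 to 1437955, was listed at 0 in CT, G and H and had 7.74 and 21.3 FPKM in E and 9.21 and 12.4 FPKM in F. Of the purple cultivars, only the pair E and F had fragments at these 3 loci, in both tissues.

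Other loci of this kind were present in G and H and absent or nearly so from E and F. Novel00170, on the plus strand of chromosome 3 from 1767312 to 1770398, was listed at 0 in all 4 libraries of E and F and had 6.84 and 2.17 FPKM in G, 7.51 and 17.8 FPKM in H and 4.03 and 0.756 FPKM in CT. Novel00678, on the plus strand of chromosome 9, had 34.0 and 6.32 FPKM in G and 21.2 and 55.7 FPKM in H, at most 1.38 FPKM in E and F, and 0 in CT. Novel00453 on chromosome 6 had between 5.06 and 19.9 FPKM in G and H and, outside these, only 3.61 FPKM in a single F library. Novel00315 on chromosome 4 went the other way and was present in CT (15.0 and 14.6 FPKM) and E (7.90 and 13.8 FPKM), in only 1 F library (7.75 FPKM), and in G and H at no more than 0.0856 FPKM. Each of these 4 loci therefore separated the purple cultivars in all but 1 library at most. Novel00555 on chromosome 7 did not, with 6.68 and 29.7 FPKM in F, 6.51 and 0 FPKM in G, 0 in H and under 1 FPKM in E and CT.

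Whether the loci differ between the purple cultivars was tested over both tissues. Of 464 loci tested, 136 were called with limma at an adjusted p below 0.05 and a log2 fold change of at least 1, against 9.62% of all loci and genes tested. The share among the loci was 29.3%, and 61 were higher in E and F and 75 higher in G and H, where the shares over all tested were 3.34% and 6.27%. Annotated genes weighted to the FPKM of the loci had 8.14% called. The share of loci was above that of genes at each level, with 16.2% against 5.56% under 1 FPKM, 38.7% against 8.72% at 2 to 5 FPKM and 29.4% against 11.2% at 50 FPKM or more. The median size of the change was 0.97 on the log2 scale for the loci and 0.39 for annotated genes. In 127 of the called loci the 4 libraries of one cultivar did not overlap those of the other, where 8.51% of all tested were called and did not overlap. The count was 84 without the second libraries of E and H, where 5.13% of all tested were called, 82 without the second F library (5.81% of all tested) and 85 without the first G library (5.53% of all tested).

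**Figure D4:**
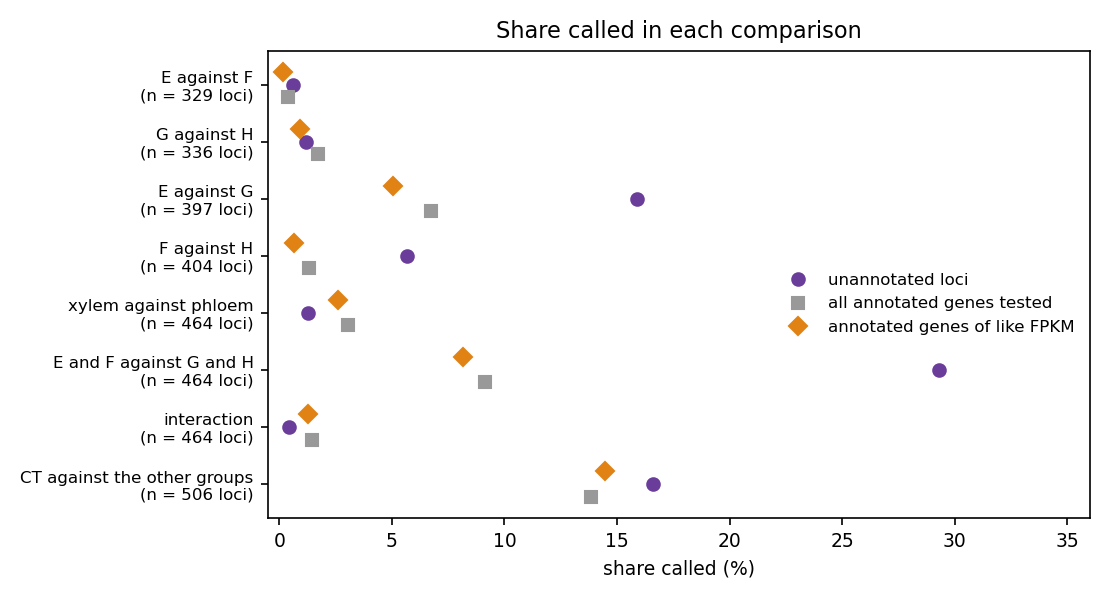
Share called (x axis, %) in each of 8 comparisons (y axis) for the unannotated loci tested, for all annotated genes tested and for annotated genes weighted to the FPKM of the loci. The loci lie at 29.3% for E and F against G and H and at 1.29% for xylem against phloem, where annotated genes of like FPKM lie at 8.14% and 2.59%.

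A locus could enter this test through a single cultivar, and the filter then favours loci that differ. Of the 464, 201 had a group mean of 1 FPKM on both sides, and 35 of these were called (17.4%). Among annotated genes 16735 passed on both sides and 7.36% were called. A further 128 loci passed through E or F alone, 42 of them called (32.8%, against 16.0% of the annotated genes that passed in this way). Another 135 passed through G or H alone, 59 of them called (43.7% against 22.1%). The loci entered through a single cultivar more often than annotated genes did, of which 6.27% passed through E or F alone and 8.43% through G or H alone.

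The largest falls from G and H to E and F were in 3 loci. Novel00490, on the plus strand of chromosome 7 from 1954781 to 1957337, had 1.61 and 1.49 FPKM in E, 1.17 and 1.43 FPKM in F, 76.3 and 59.6 FPKM in G, 52.4 and 74.95 FPKM in H and 37.4 and 52.8 FPKM in CT. It was low in both tissues of E and F alone, and fell by 4.77 on the log2 scale (SE 0.22, adjusted p = 1.4e-05). It lies 109 bases from LOC108195331 on the opposite strand, and DH1 v3.0 has a newer protein-coding gene in this interval. Novel00818, on a scaffold without annotated genes (2289 to 5046), had at most 0.221 FPKM in E and F, between 15.6 and 28.8 FPKM in G and H and 9.97 and 9.95 FPKM in CT, a difference of -4.24 (SE 0.30, adjusted p = 0.00012). Novel00715 on another scaffold (201305 to 216712) had at most 0.0751 FPKM in E and F and 0.164 FPKM in CT, and between 12.8 and 19.3 FPKM in G and H. Its difference was -4.07 (SE 0.26, adjusted p = 7.2e-05), and of the 3 it alone was near 0 in the orange cultivar as well.

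The largest rises were those of Novel00016 (3.85, SE 0.38, adjusted p = 0.00072), Novel00017 (3.79, SE 0.34, adjusted p = 0.00047) and Novel00726 (3.68, SE 0.35, adjusted p = 0.00055), whose values are given above. With groups at 0 such fitted changes depend on the pseudocount of 1 and are not bounds.

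**Figure D5:**
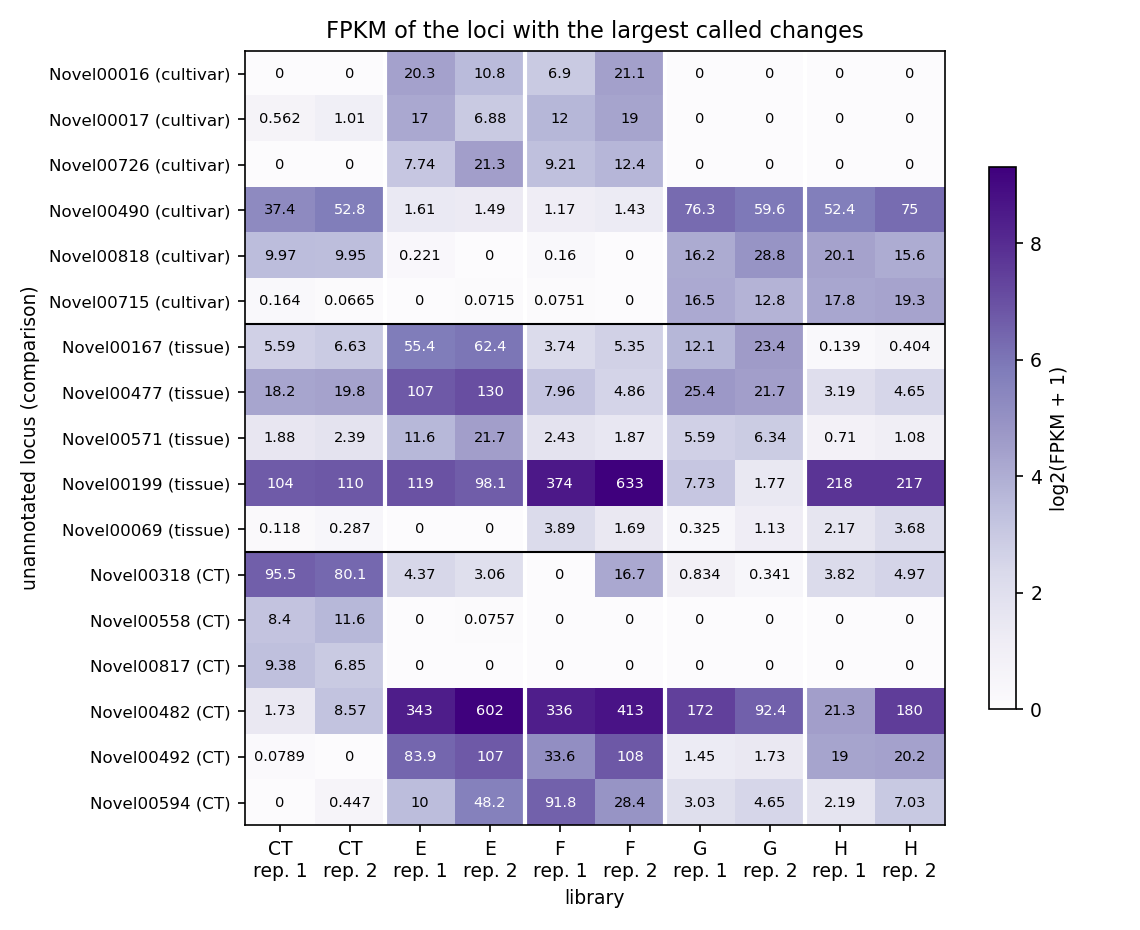
FPKM (numbers in the cells, colour as log2(FPKM + 1)) in each of the 10 libraries (x axis) of the unannotated loci with the largest called changes (y axis) by cultivar, tissue and CT, up to 3 per direction. The cultivar loci change between E and F and G and H in both tissues, and Novel00199 runs from 1.77 FPKM in G to 633 FPKM in F.

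Taken tissue by tissue, the cultivar comparisons gave fewer calls. In xylem, E against G, 63 of 397 loci were called (6.94% of all tested), 21 higher in E and 42 higher in G (1.62% and 5.32% of all tested). In phloem, F against H, 23 of 404 were called (1.41% of all tested), 9 higher in F and 14 higher in H (0.530% and 0.878% of all tested). Called in both were 15 loci, 5 higher in E and F and 10 lower, and 0 in opposite directions. Novel00490 was among these, with changes of -4.75 in xylem and -4.79 in phloem (adjusted p = 0.0082 and 0.0095). The calls shared by both comparisons were not counted over all tested, so whether these shared calls and directions are particular to the loci was not tested. In xylem the split under quantile normalization was 46 higher in E and 41 higher in G, whereas over all tested 555 of 1441 calls were higher in E. Each of these pairs rests on 4 libraries, and without 1 of them between 0 and 12 loci were called in xylem (0 to 1.99% of all tested) and 0 in phloem (0% of all tested).

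Xylem and phloem differed at few of the loci. Over both cultivars 6 of 464 loci were called (1.29%), 4 higher in xylem and 2 higher in phloem, against 2.99% of all tested (0.876% called as higher in xylem, 2.12% as higher in phloem). In 5 of the 6 the tissues did not overlap, where 2.69% of all tested were called and did not overlap. In E against F 2 of 329 loci were called (0.372% of all tested), both higher in E (0.0547%, with 0.317% higher in F). In G against H 4 of 336 were called (1.71% of all tested), 1 higher in G and 3 higher in H (1.01% and 0.705%). The median size of the change was 0.31 on the log2 scale both for the loci and for annotated genes. Without the second libraries of E and H 2 loci were called (0.409%, against 0.557% of all tested). Without the first H library the number was 3 (0.657% against 2.10%).

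The loci higher in xylem were higher in that tissue of both cultivars. Of the 6 loci called for tissue, 4 were also called between the cultivars, each higher in E and F over both tissues. Such double calls were not counted over all tested. The log2 changes were 1.93 for Novel00167, 1.43 for Novel00477, 1.98 for Novel00048 and 2.82 for Novel00199 (limma, adjusted p from 0.0041 to 0.038). In xylem (E against G) and phloem (F against H) they were 4.47 and 1.16 for Novel00199, and 2.28 and 0.57 for Novel00477. For Novel00167 they were 1.74 and 2.12, and for Novel00048 2.13 and 1.83. Both E libraries of Novel00199 lay below both of its H libraries. Novel00167, on the minus strand of chromosome 2 from 43116948 to 43117683, had 55.4 and 62.4 FPKM in E against 3.74 and 5.35 FPKM in F, and 12.1 and 23.4 FPKM in G against 0.139 and 0.404 FPKM in H. It rose by 3.63 on the log2 scale (SE 0.28, adjusted p = 0.00068), and was called in each cultivar alone (3.45 and 3.82). Its xylem and phloem libraries did not overlap. It lies 136 bases from LOC108210202 on the opposite strand. Novel00477, on the minus strand of chromosome 6 from 23508924 to 23510515, had 107 and 130 FPKM in E, 25.4 and 21.7 FPKM in G, and between 3.19 and 7.96 FPKM in the phloem libraries, a rise of 3.18 (SE 0.36, adjusted p = 0.0038). Novel00571 on chromosome 7 (23963949 to 23965620) had 11.6 and 21.7 FPKM in E, 5.59 and 6.34 FPKM in G and at most 2.43 FPKM in phloem, a rise of 2.16 (SE 0.31, adjusted p = 0.0081). The CT slice lay between the tissues for Novel00167, with 5.59 and 6.63 FPKM, and within the phloem range for Novel00571, with 1.88 and 2.39 FPKM. The call of Novel00571 was lost without the second libraries of E and H (adjusted p = 0.057).

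Novel00048, on the minus strand of chromosome 1 from 19036439 to 19037517, was also called, with a rise of 2.26 (SE 0.45, adjusted p = 0.031), but its tissues overlapped. It had 8.18 and 38.3 FPKM in E, 3.87 and 2.86 FPKM in G, 1.997 and 3.24 FPKM in F, and 0 in H. A single E library therefore held its highest value. The call was lost without both second libraries of E and H (adjusted p = 0.123) and without any 1 library of F, G or H (adjusted p from 0.0716 to 0.0952).

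Novel00199 and Novel00069 were higher in phloem. Novel00199, on the plus strand of chromosome 3 from 28856406 to 28856976, had 374 and 633 FPKM in F and 218 and 217 FPKM in H, against 119 and 98.1 FPKM in E and 7.73 and 1.77 FPKM in G. It fell by 3.82 from phloem to xylem (SE 0.65, adjusted p = 0.018), with no overlap of the tissues, and G was the only group where it was scarce. The difference was -5.47 in G against H (SE 0.55, adjusted p = 0.020), and CT had 104 and 110.3 FPKM. The tissue call was lost without the first H library (adjusted p = 0.051), without the second (adjusted p = 0.060) and without the second libraries of E and H together (adjusted p = 0.145). Novel00069 on chromosome 1 (46049123 to 46049815) had 0 in both E libraries, 0.325 and 1.13 FPKM in G and between 1.69 and 3.89 FPKM in phloem, a difference of -1.53 (SE 0.33, adjusted p = 0.043). Its call was lost under each library left out, with adjusted p from 0.052 to 0.120.

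Between single groups 2 further loci were called for tissue. Novel00198 on chromosome 3 had 14.8 and 11.1 FPKM in G and 56.3 and 70.3 FPKM in H, a difference of -2.21 (SE 0.29, adjusted p = 0.036), and 47.8 to 78.2 FPKM in E and F. Novel00492, described next, was lower in G than in H by a log2 change of -2.99 (SE 0.41, adjusted p = 0.039). G was thus the low group in Novel00198, Novel00199 and Novel00492 among the purple cultivars. Without 1 of the 4 libraries 0 loci were called in E against F (0 to 0.0950% of all tested) and 0 or 1 in G against H (0.442% to 1.28% of all tested).

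Whether the tissue difference itself differs between the cultivars was tested as an interaction, with no minimum fold change. It was called for 2 of the 464 loci, against 1.45% of all tested. Both had a negative value, as 1.27% of all tested had. Novel00160, on the minus strand of chromosome 2 from 38291180 to 38292630, had 1.01 and 0.419 FPKM in E but 18.3 and 16.9 FPKM in F, while G (12.3 and 12.5 FPKM) and H (9.81 and 14.5 FPKM) overlapped. Novel00235 on chromosome 3 (27117613 to 27118436) had 3.06 and 4.76 FPKM in E and 12.7 and 7.66 FPKM in F, but 24.8 and 18.96 FPKM in G and 3.34 and 4.74 FPKM in H. The order of the tissues was thus opposite in the cultivars for Novel00235.

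The orange cultivar was compared as a whole slice with the 4 other groups, so that its cultivar and its lack of dissection cannot be told apart. Of 506 loci tested, 84 were called (16.6%), against 13.9% of all tested and 14.5% of annotated genes weighted to their FPKM. Of these, 45 were higher in CT and 39 lower, where the shares over all tested were 10.1% and 3.78%. The median log2 fold change was -0.36 over the loci and 0.35 over all tested, and under quantile normalization, where the median over all tested was 0.04, 25 loci were higher in CT and 57 lower. Of all tested, 2414 were called under that normalization, 1117 of them higher in CT. Leaving out the first CT library left 33 calls (6.56% of the loci, against 2.60% of all tested) and leaving out the second left 37 (7.39% against 3.63%). Without the second libraries of E and H 112 loci were called, 46 higher in CT and 66 lower (21.3%, against 14.6% of all tested, where 2169 of 3072 calls were higher in CT). In 55 of the called loci the CT libraries were outside the range of the other 8, where 9.99% of all tested were called and not overlapping. A locus could enter this test through CT alone, and the filter then favours loci that differ. Through CT alone 42 loci passed, 24 of them called (57.1%, against 40.7% of the annotated genes that passed in this way). On both sides 210 passed, with 15.7% called against 13.0%. Another 254 passed through the other groups alone, with 10.6% called against 12.3%.

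The loci that rose most in CT were low or at 0 elsewhere. Of these, Novel00558 and Novel00817 entered the test through CT alone, and the filter favours such loci. Novel00318, on the minus strand of chromosome 4 from 30950477 to 30951120, had 95.5 and 80.1 FPKM in CT, 0 and 16.7 FPKM in F and at most 4.97 FPKM in the other groups, a rise of 4.63 (SE 0.84, adjusted p = 0.010). Its call was lost without the first CT library (adjusted p = 0.121) and without the second (adjusted p = 0.096). Novel00558, on the minus strand of chromosome 7 from 15323551 to 15328551, had 8.40 and 11.6 FPKM in CT and was listed at 0 in all others but an E library at 0.0757 FPKM (3.43, SE 0.18, adjusted p = 3.4e-05). Novel00817, on a scaffold from 40315 to 42144, had 9.38 and 6.85 FPKM in CT and 0 in the 8 other libraries, at least 43.0-fold the level of 3 fragments per library (3.17, SE 0.17, adjusted p = 3.9e-05). Novel00753 on another scaffold had 13.3 and 16.7 FPKM in CT, 2.92 and 6.09 FPKM in G, 3.76 and 1.21 FPKM in H and at most 0.132 FPKM in E and F.

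The loci that fell in CT were abundant in the purple cultivars, though unevenly. Novel00482, on the minus strand of chromosome 6 from 30309926 to 30311369, had 1.73 and 8.57 FPKM in CT, 343 and 602 FPKM in E, 336 and 413 FPKM in F, 172 and 92.4 FPKM in G and 21.3 and 180 FPKM in H. It fell by 5.24 on the log2 scale (SE 0.73, adjusted p = 0.0038) and no library reached the CT level, while H was split between its replicates. Its call was lost without the first CT library (adjusted p = 0.068). Novel00492, on the plus strand of chromosome 7 from 3990487 to 3991635, had 0.0789 and 0 FPKM in CT, 83.9 and 107 FPKM in E, 33.6 and 108 FPKM in F, 1.45 and 1.73 FPKM in G and 19.01 and 20.2 FPKM in H. Its fall was 4.51 (SE 0.38, adjusted p = 0.00046), and E was higher than G by 5.21 (SE 0.31, adjusted p = 0.0066). Novel00594 on chromosome 8 (5508863 to 5509342) had 0 and 0.447 FPKM in CT, between 10.03 and 91.8 FPKM in E and F and between 2.19 and 7.03 FPKM in G and H (-3.44, SE 0.64, adjusted p = 0.011). Its call was lost without the first CT library (adjusted p = 0.132) and without the second (adjusted p = 0.085). In these 3 loci every library of E and F was above every library of G and H.

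The loci took little of the sequencing. As FPKM times listed length, they held between 0.277% (first CT library) and 0.488% (first F library) of the fragments. The share was 0.397 ± 0.0382% in xylem and 0.445 ± 0.0460% in phloem (SD, n = 4 each, exact two-sided permutation p = 0.143, adjusted over the 3 comparisons 0.171). It was 0.444 ± 0.0510% in E and F and 0.397 ± 0.0315% in G and H (SD, n = 4 each, exact permutation p = 0.171, adjusted 0.171). In CT it was 0.279 ± 0.0028% (SD, n = 2), below all 8 other libraries, which had 0.421 ± 0.0466% (SD, n = 8). The exact permutation p was 0.0444 (0.133 after adjustment), the smallest that the test as computed could give for 2 against 8 libraries. None of the 3 differences passed the adjusted threshold. The permutations treated libraries as independent, though xylem and phloem of a cultivar may come from the same roots. Without the 10 highest loci the share was 0.194% in CT and 0.216% in the other libraries.

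Called and uncalled loci were compared by position. Loci called between the purple cultivars had a median distance of 2793 bases to the nearest gene, against 2403 bases for those tested and not called. A newer gene lay in the interval of 57 of 90 called loci (63.3%) and of 54.6% of the others, and 19.1% of the called were off the chromosomes against 14.0%. The 70 on-or-off loci lay further from genes, at a median of 5011 bases. For 68 called loci the nearest annotated gene was itself tested, and 11 of these genes were called, 8 in the direction of the locus. Within 2000 bases 4 of 31 such genes were called, all 4 in the direction of the locus. Of all annotated genes tested in this comparison 9.15% were called. Whether loci change together with their neighbours was not tested.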

How the data were processed

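Filtered read pairs had been aligned by the authors to the carrot genome of NCBI (Bowtie2 2.2.3 and TopHat2 2.0.12, with HTSeq 0.6.1 and DESeq 1.18.0 also named in the submitters' processing notes). They deposited FPKM for each locus of each library, beside its strand, start, end and length. The build and the way the unannotated loci were found are not given in the sources used here. The study's test needs counts, so limma 3.58.1 under R 4.3.3 was used, with eBayes and its trend option, on log2(FPKM + 1), over all loci and genes with a group mean of at least 1 FPKM, with Benjamini-Hochberg adjustment over all tested. Pairs of groups used their 4 libraries, tissue and cultivar 8 with each other as covariate, and CT all 10. The 2 libraries of a group are biological replicates per the paper, with roots mixed per cultivar. In the fits of pairs, of the interaction and of CT, p-values measure the spread between them. In the fits of tissue and of cultivar the residual also holds any difference of the tissue effect between the cultivars.

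Fold changes are on the log2(FPKM + 1) scale, which understates those of low loci. Whole fragments (within 0.002) were recovered from FPKM times listed length for 63.5% of the 724 detected unannotated loci (74.8% of all detected loci and genes) and with a searched length for the others. Totals lay between 13909841 and 17118787 fragments, which limits loci near 3 fragments. The loci named were the 10 with the highest mean, up to 3 called rises and 3 called falls per comparison without overlap, up to 10 at 0 in a group and at 5 FPKM or more in another, the 3 longest by length and by span, and the 3 most even with a mean of 10 FPKM or more. Others are said to be named after their values were seen. The members and lists were chosen with earlier results of these data known. Alternatives were no filter, a pseudocount of 0.1, voom on recovered fragments, quantile normalization, a replicate block, 1 fit of all 10 libraries, no minimum fold change and each library left out. The crossed block, the fits without the second libraries of E and H, the split by the side that passed the filter and the share from recovered fragments were added after seeing the data. Scripts ran in Python 3.11.15 with matplotlib 3.10.9, SciPy 1.17.1, numpy 2.4.6 and pandas 2.3.3.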

Additional observations from a re-analysis of the deposited data

Results flagged for a closer look

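The xylem to phloem difference differed between the cultivars, by the test of the interaction in limma, in 2 loci. For Novel00160 the difference in the pair E and F minus that in the pair G and H was -3.51 on the log2 scale (SE 0.50, adjusted p = 0.028), with both E libraries (1.01 and 0.419 FPKM) below the 6 other libraries of the purple cultivars, which had at least 9.81 FPKM. For Novel00235 it was -3.36 (SE 0.56, adjusted p = 0.041), with both xylem libraries below both phloem libraries in E and F and above them in G and H. Both calls were lost with voom, with quantile normalization, with the replicate block and without any 1 of the 8 libraries (adjusted p from 0.0605 to 0.128 for Novel00160 and from 0.0768 to 0.147 for Novel00235).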

How the results depend on the processing

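Between the purple cultivars the alternatives other than leaving libraries out gave 110 to 170 called loci (136 in the reported fit). Over all tested they called 5.03% to 11.4%. Leaving out each library in turn gave 82 to 127 called loci, where 5.53% to 9.25% of all tested were called. For CT leaving out each library gave 33 to 95 called loci, for tissue 3 to 7, and for the interaction 0 to 3. Over all tested the tissue fits with 1 library left out called 1.205% to 2.44%. The CT fits without a library of E, F, G or H called 10.6% to 20.2% of all tested. The shares without a CT library are given above. The interaction calls with 1 library left out did not include Novel00160 or Novel00235, the 2 loci of the reported fit. Each of these interaction fits had a single library in 1 group, so the range of counts does not show that calls were kept. Without the second libraries of E and H 84 loci were called by cultivar, 2 by tissue and 112 for CT (5.13%, 0.557% and 14.6% of all tested). The share of fragments in CT minus that elsewhere ranged from -0.151 to -0.132 percentage points with 1 library left out, where the exact permutation p rose to 0.0556 or more in the smaller design.

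Counts in single pairs depended on the setting, and the cause was not tested. For E against F, 2 in the reported fit, they were 0 without the filter on low values (27 at an unadjusted p below 0.05), 0 with voom on recovered fragments (24 unadjusted), 4 with quantile normalization and 12 in 1 fit of all 10 libraries. For G against H, 4 in the reported fit, they were 0 without the filter (27 unadjusted), 0 with voom (29 unadjusted) and 17 in 1 fit. For E against G, 63 in the reported fit, they were 2 without the filter, 105 with a pseudocount of 0.1 and 131 in 1 fit. For F against H, 23 in the reported fit, they were 0 without the filter (148 unadjusted), 0 with voom (163 unadjusted), 37 with quantile normalization and 77 in 1 fit. The 1 fit called 6.64% of all tested for G against H, 13.7% for E against G, 5.87% for F against H and 4.14% for E against F. Without the filter these shares were 0.158%, 0.438%, 0.0247% and 0.0472%, in the same order. With voom 0.155% of all tested were called in G against H and 0% in E against F and in F against H. Quantile normalization called 0.804% in E against F and 2.51% in F against H, and a pseudocount of 0.1 called 8.50% in E against G. The interaction had 0 calls with voom (23 unadjusted), with quantile normalization (41 unadjusted) and with the replicate block (27 unadjusted), against 2 in the reported fit. Over all tested these settings called 0.413%, 0.618% and 0.179%, against 1.45% in the reported fit. Leaving out a library gave 0 in E against F, 0 to 1 in G against H, 0 to 12 in E against G and 0 in F against H.

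Groups share replicate numbers, but the labels do not say that these pair the samples. Replicate differences over 20824 loci and genes correlated between groups from -0.557 (G and H) to 0.593 (E and H), so the numbers alone did not pair them. With the replicate block 74 loci were called in E against G (18.6% of the loci, 7.26% of all tested), 11 in E against F (3.34% and 3.18%), 69 in F against H (17.1% and 5.31%), 9 in G against H (2.68% and 3.48%) and 116 between the cultivars (25.0% and 7.72%). With the numbers of one group crossed, which was chosen after seeing the data, the counts were 73 in G against H (21.7% and 16.5%), 147 in E against G (37.0% and 17.3%), 9 in E against F (2.74% and 3.09%) and 65 in F against H (16.1% and 6.65%).

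For 40 changes of named loci, 516 values under alternatives had 367 calls kept, 149 lost and 0 reversed. Loci near 3 fragments in a library could not be told from 0, and 218 detected loci were below the filter.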
